A study of Mus musculus with 4 samples.

Results

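The 10 genes described here belong to the Wnt pathway and were measured in fat cells formed from 3T3-F442A preadipocytes, a mouse cell line that accumulates lipid in culture. They comprise the secreted frizzled-related proteins Sfrp1 and Sfrp2, the frizzled receptors Fzd1, Fzd2 and Fzd4, and the ligands Wnt4, Wnt5a and Wnt10b. The other two, Axin2 and Tcf7l2, act inside the cell and are neither ligands nor receptors. A probe set, the group of array probes summarised into 1 value, was included when the platform annotation named exactly 1 gene and that gene was among the 10. This gave 21 probe sets for all 10 genes, out of 22626 probe sets on the array.

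The shTRPV4 group holds 2 arrays of cells with a stably expressed short hairpin RNA against the cation channel gene Trpv4, and the shGFP group holds 2 arrays of cells with a control hairpin against GFP. Both hairpins were delivered to preadipocytes by retrovirus, followed by puromycin selection (2 ug/ml, 2 days). Both groups were then given 850 nM insulin for 8 days, with rosiglitazone, a PPAR gamma agonist, during the first 2 days. The labels do not say whether the replicates were separate infections, cultures or hybridisations, so the p-values rest on an array-to-array spread that may be purely technical. They also do not say whether the selected cells were a pool or 1 clone.

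Wnt ligands are secreted lipid-modified glycoproteins that bind frizzled receptors on the cell surface. In the canonical branch, the receptor and its co-receptors LRP5 and LRP6 stop the destruction of beta-catenin, which then enters the nucleus and activates genes together with TCF/LEF factors. Secreted frizzled-related proteins resemble the ligand-binding part of the receptors and can hold Wnt ligands outside the cell. Canonical Wnt signalling is known to keep preadipocytes from becoming fat cells.

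No fall of Trpv4 was detected on the arrays labelled shTRPV4. Its probe set read 80.1 and 79.5 in shTRPV4 arrays, against 43.7 and 93.8 in shGFP arrays (log2 difference 0.32, 95% interval −0.55 to 1.19, limma adjusted p = 0.55). The groups are therefore named by their labels. The cells carried adipocyte transcripts in both groups, with Adipoq, which encodes adiponectin, at 13294 and 14169 in shTRPV4 arrays and at 11784.5 and 11816 in shGFP arrays. Of 8 adipocyte markers measured, 3 rose and 0 fell, beside 5.33% and 6.00% of all genes. Those that rose were Retn (1.90), Cebpa (0.88) and Pparg (0.45). Lipe (0.43), Adipoq (0.16), Lpl (−0.05) and Cidec (−0.14) did not pass, and the brightest probe set, of Fabp4, was made equal on all arrays by the normalization. The other Fabp4 probe sets differed by 0.46, 0.38 and 0.04 and did not pass. The summed intensity of the 8, as deposited, was 61319.8 to 64617 in shTRPV4 arrays and 53859 to 54197 in shGFP arrays. Such a sum weights the brightest probe sets most. Median intensities of the arrays lay between 129.4 and 144.0, and between 20.3% and 20.7% of the values on an array were under 16.

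Of the 21 probe sets, 4 fell, 1 rose and 16 did not pass in shTRPV4 arrays relative to shGFP arrays. The 4 that fell read Sfrp2 (1 probe set) and Fzd2 (3 probe sets), and the one that rose read Tcf7l2. A probe set passed when its limma p-value, adjusted by the Benjamini-Hochberg method over all 22626 probe sets, was under 0.05. Over the whole array 9.90% of probe sets passed, 5.36% lower and 4.54% higher, beside 23.8% of the 21. The 10 genes were chosen with earlier results of these data known, so their share is not independent of the data. The probe sets of 1 gene share their target, and 3 of the 5 passing ones belong to Fzd2. By gene, with the brightest probe set standing for each, 2 of the 10 fell and 0 rose, beside 6.00% and 5.33% of all 12393 genes. The 2 groups did not overlap in the deposited intensities for 14 of the 21 probe sets, 10 of them lower and 4 higher in shTRPV4 arrays, and this held for 56.5% of all probe sets (30.3% lower, 26.2% higher). Differences are given on the scale log2(intensity + 16) after quantile normalization, as shTRPV4 minus shGFP, and this offset understates the change of dim probe sets. These calls and those of the other genes named below rest on all 4 arrays, and none was kept when any 1 array was left out. The median difference was −0.06 over the 21 probe sets and 0.02 over all probe sets.

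**Figure D1:**
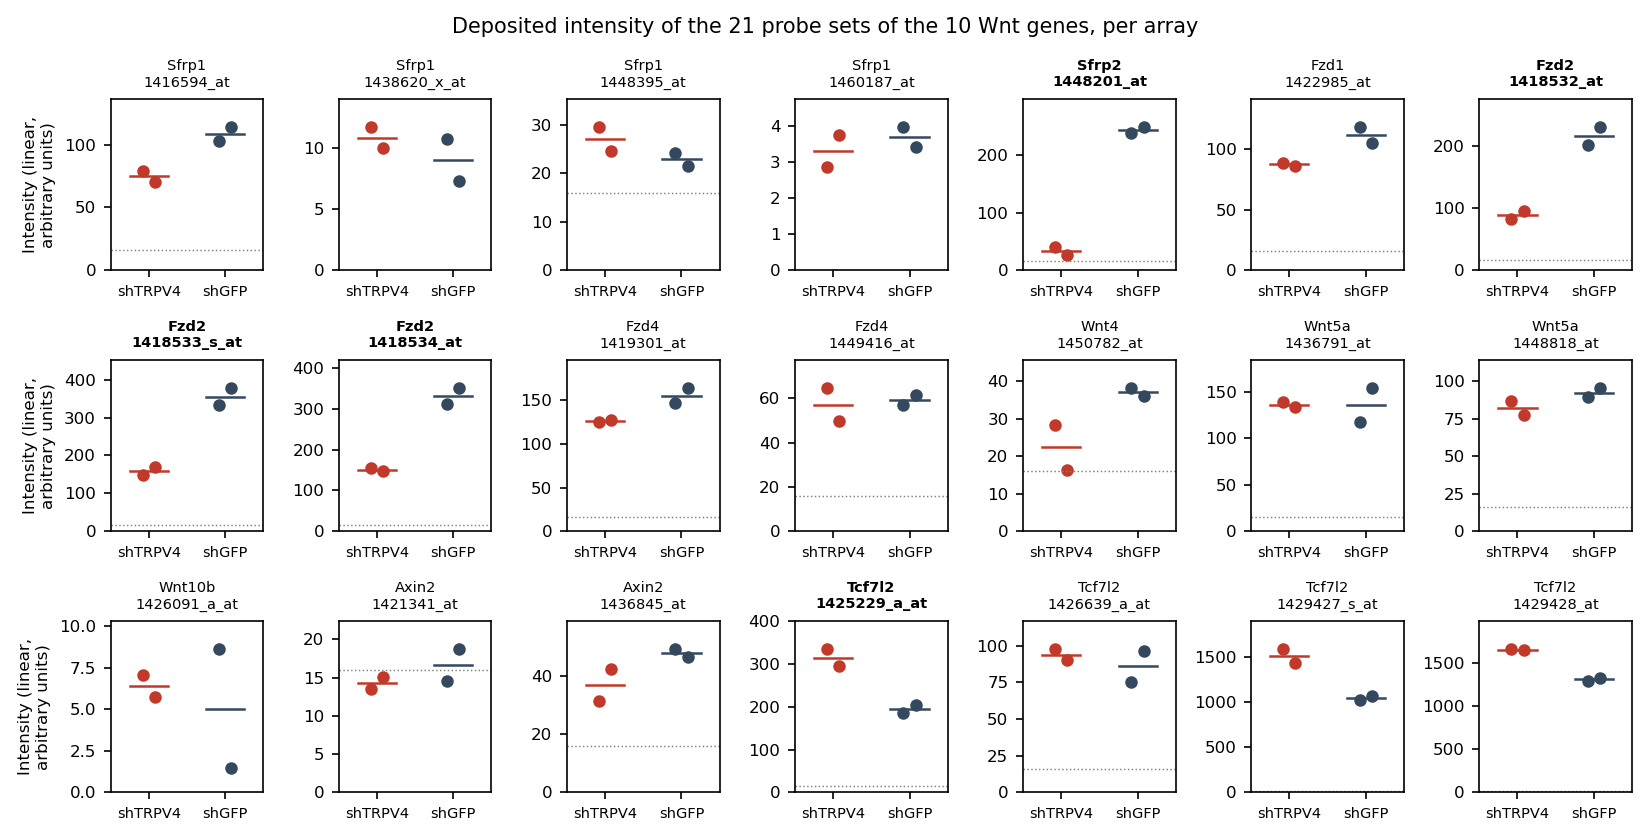
Deposited intensity (vertical axis, linear, arbitrary units, starting at 0) of each of the 21 probe sets in the shTRPV4 arrays (left, red) and the shGFP arrays (right, dark blue). Each point is 1 array, the short line is the group mean, the dotted line marks the offset of 16 where it falls in the axis range, and a bold title marks the 5 probe sets that passed. The shTRPV4 readings of Sfrp2 and of the 3 Fzd2 probe sets all lie under the shGFP readings. Each panel has its own scale, since levels of different probe sets cannot be compared.

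Sfrp2 had the largest difference among the 10 genes. Its product is a secreted frizzled-related protein that binds Wnt ligands in the extracellular space and is made by many mesenchymal cells. The single Sfrp2 probe set (1448201_at) read 39.7 and 26.7 in shTRPV4 arrays, against 238 and 247 in shGFP arrays. Both shTRPV4 readings lay far below both shGFP readings, with means of 33.2 ± 9.19 in shTRPV4 arrays and 243 ± 6.58 in shGFP arrays (SD, n = 2 each). The log2 difference was −2.35 (SE 0.15, 95% interval −2.77 to −1.94, limma adjusted p = 0.016). That is 5.11-fold lower in shTRPV4 arrays on the normalized scale with the offset added, not the ratio of the deposited means. The size depends on the offset, since the shTRPV4 readings are not far above 16, and it was −2.80 with an offset of 1 and −1.62 with an offset of 64. In RNA from a whole culture, fewer cells of a type and less RNA per cell cannot be told apart.

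The 300 bases around the annotated Sfrp2 start, from 250 bases before it to 50 after it, are printed below because Sfrp2 carries the largest difference. They come from RefSeq on the GRCm38.p6 build, plus strand, chr3:83766071-83766370. Capitals would mark CTTTG, the core that TCF/LEF factors bind, searched on both strands, and this window has none.
Sfrp2: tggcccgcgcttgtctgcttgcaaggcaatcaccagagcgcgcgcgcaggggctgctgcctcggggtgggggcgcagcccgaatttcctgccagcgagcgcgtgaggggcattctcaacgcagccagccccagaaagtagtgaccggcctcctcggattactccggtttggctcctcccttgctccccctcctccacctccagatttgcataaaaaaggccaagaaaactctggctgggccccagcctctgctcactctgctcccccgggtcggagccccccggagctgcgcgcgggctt
The window is 66% G and C with 22 CpG dinucleotides, beside medians of 52.7% and 7 over all 32851 RefSeq windows of this length. The absence of the letters says nothing of whether a TCF/LEF factor acts on the gene.

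Sfrp1, the relative of Sfrp2 with the same domain plan, was read by 4 probe sets that did not point one way, and none passed. The brightest (1416594_at) read 79.4 and 70.5 in shTRPV4 arrays, against 103 and 114 in shGFP arrays. Its groups did not overlap, and its difference was −0.37 (SE 0.09, 95% interval −0.62 to −0.13, limma adjusted p = 0.082). This probe set did pass when the dimmest 25% of the array was left out, with a limma adjusted p of 0.042. The probe set 1448395_at read 29.4 and 24.7 in shTRPV4 arrays, against 24.3 and 21.6 in shGFP arrays, a difference of 0.17 (95% interval −0.08 to 0.42). The remaining probe sets, 1438620_x_at and 1460187_at, read between 2.87 and 11.7 on every array, below the offset, with differences of 0.11 and −0.01. With all 4 averaged, Sfrp1 differed by −0.02 (95% interval −0.22 to 0.17, limma adjusted p = 0.85). That average includes the probe sets below the offset, where the offset understates any change.

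Fzd2 fell on all 3 of its probe sets by similar amounts. Frizzled-2 is a receptor with several membrane-spanning segments that binds Wnt5a among other ligands. The brightest of the 3 (1418533_s_at) read 149 and 169 in shTRPV4 arrays, against 334 and 377 in shGFP arrays, a difference of −1.02 (SE 0.08, 95% interval −1.24 to −0.79, limma adjusted p = 0.018). That corresponds to 2.03-fold lower in shTRPV4 arrays on the normalized scale with the offset added, not to the ratio of the deposited readings. The probe set 1418532_at read 83.1 and 95.8 in shTRPV4 arrays, against 201 and 230 in shGFP arrays (−1.06, SE 0.09, limma adjusted p = 0.020). The probe set 1418534_at read 156 and 147 in shTRPV4 arrays, against 311 and 349 in shGFP arrays (−0.98, SE 0.08, limma adjusted p = 0.019). On each of the 3, every shTRPV4 reading was under every shGFP reading. The annotation gives the 3 the same source sequence, so they are repeated readings of 1 transcript and not separate evidence. An ID ending in _s_at can also read related transcripts, and the other IDs do not carry that limit.

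Most measured markers of preadipocytes fell on the same arrays as Sfrp2 and Fzd2. Of 8 measured, 5 fell and 0 rose, beside 6.00% and 5.33% of all genes, and none was at 0. Their summed intensity was 8022 to 8343 in shTRPV4 arrays and 14782 to 15290 in shGFP arrays. Such a sum follows its brightest probe sets. Dlk1 averaged 2215 in shTRPV4 arrays and 5275 in shGFP arrays, Pdgfra 1792 and 4333, and Pdgfrb 2380 and 2668. The largest falls were in Dlk1, a surface protein of preadipocytes (−1.24, SE 0.08), and Pdgfra, a growth factor receptor of adipocyte precursors (−1.25, SE 0.06). Cd34 (−1.07, SE 0.10), Zfp521 (−0.96, SE 0.10) and Thy1 (−0.56, SE 0.07) fell as well. Gata3 was higher without overlap but did not pass (0.37, SE 0.13), and neither did Pdgfrb (−0.14) and Gata2 (−0.07). Of 7 macrophage markers 3 fell and 1 rose, with summed intensities of 597 to 655 in shTRPV4 arrays and 936 to 1031 in shGFP arrays. Lyz2 (−1.89), Cd14 (−0.96) and Csf1r (−0.85) fell, Csf1r on 1 of its 3 probe sets, and Cd68 rose (1.49). Itgam (0.58) and Adgre1 (0.33) were higher without overlap and did not pass, and the list median was 0.17. The pan-leukocyte gene Ptprc, also on this list, read between 5.43 and 11.3 on every array, below the offset. Of 4 osteoblast and chondrocyte markers measured, 0 passed, and their sums were 811 to 858 in shTRPV4 arrays and 707 to 818 in shGFP arrays. Sox9, the brightest of them, differed by 0.14 on its brightest probe set and by 0.37 on the other, without passing. The part of these markers in the differences of Sfrp2 and Fzd2 was not tested.

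Fzd1 and Fzd4, receptors of the same family, had smaller differences that did not pass. The Fzd1 probe set (1422985_at) read 88.5 and 86.2 in shTRPV4 arrays, against 118 and 105 in shGFP arrays. Its groups did not overlap and its difference was −0.22 (SE 0.09, 95% interval −0.48 to 0.05, limma adjusted p = 0.23). It was −0.12 without shGFP replicate 1 and −0.31 without shGFP replicate 2. Frizzled-4 is known as the receptor of norrin as well as of Wnt ligands. Its brighter probe set (1419301_at) read 125 and 128 in shTRPV4 arrays, against 147 and 163 in shGFP arrays, a difference of −0.18 (95% interval −0.36 to 0.01, limma adjusted p = 0.18). The dimmer one (1449416_at) read 64.5 and 49.8 in shTRPV4 arrays, against 56.9 and 61.3 in shGFP arrays, where the shTRPV4 readings spanned both shGFP readings (0.03, 95% interval −0.32 to 0.38). The intervals of Fzd1 and Fzd4 exclude a fall as large as the point estimate for Fzd2, but the differences between the receptors were not themselves tested.

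None of the 4 ligand probe sets passed. Wnt4, a ligand with roles in kidney and gonad development, read 28.4 and 16.4 in shTRPV4 arrays, against 38.0 and 35.9 in shGFP arrays. Both shTRPV4 readings were the lower ones, one of them at the offset, and the difference was −0.45 (SE 0.17, 95% interval −0.94 to 0.04, limma adjusted p = 0.18). It was −0.68 without shTRPV4 replicate 1 and −0.23 without shTRPV4 replicate 2. Wnt5a, a ligand best known for beta-catenin-independent signalling, was read by a pair of probe sets. The brighter (1436791_at) read 139 and 133 in shTRPV4 arrays, within the 117 and 153 of the shGFP arrays, and differed by 0.11 (95% interval −0.24 to 0.47). The other (1448818_at) read 86.8 and 77.4 in shTRPV4 arrays, against 89.6 and 95.1 in shGFP arrays (−0.06, 95% interval −0.31 to 0.18). Wnt10b, the ligand best known for holding back fat cell formation, read 7.09 and 5.76 in shTRPV4 arrays, against 8.61 and 1.5 in shGFP arrays. All 4 Wnt10b readings were below the offset and near the bottom of the array, so its difference of 0.12 (95% interval −0.43 to 0.67, limma adjusted p = 0.74) does not describe a level with any precision.

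**Figure D2:**
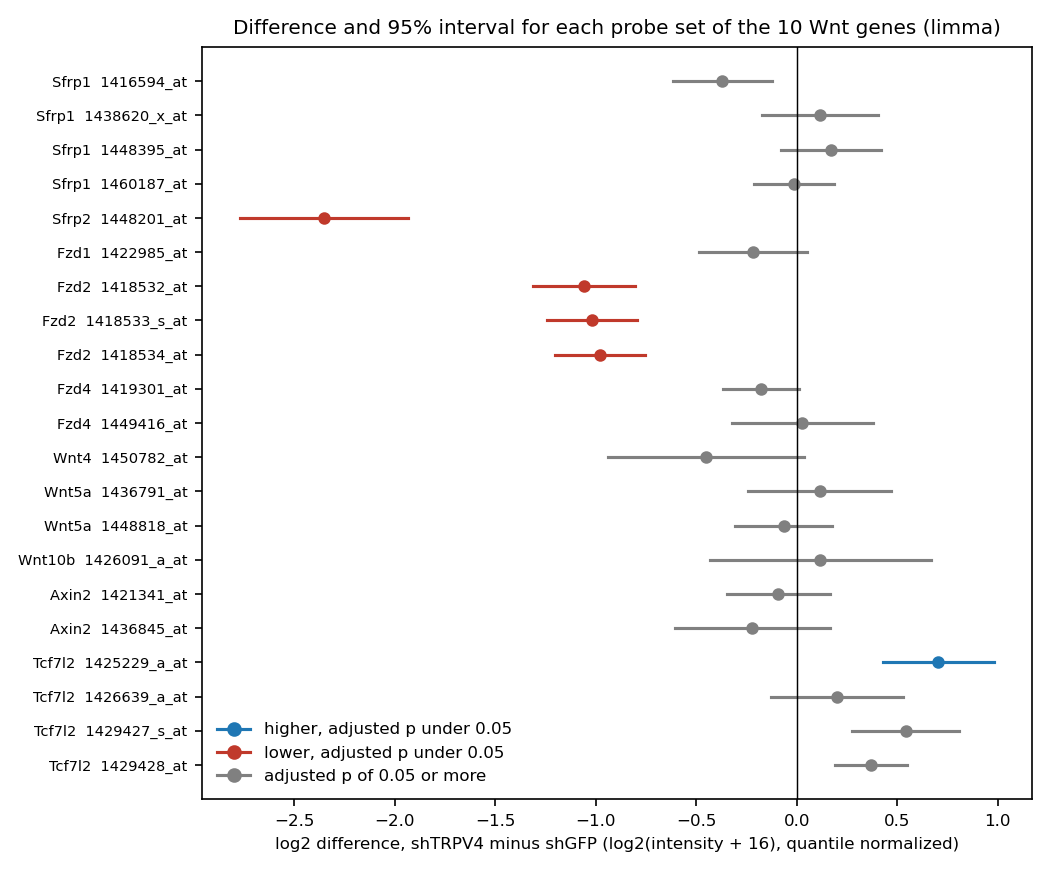
Difference between shTRPV4 and shGFP arrays (horizontal axis, log2(intensity + 16) after quantile normalization) for each of the 21 probe sets, with the 95% interval from limma as a bar. The Sfrp2 probe set lies at −2.35 and the 3 Fzd2 probe sets between −1.06 and −0.98. The 4 Tcf7l2 probe sets lie to the right of 0, from 0.20 to 0.71, with 1 of them past the threshold.

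Tcf7l2, the TCF/LEF factor that brings beta-catenin to its target genes, was higher in shTRPV4 arrays on 3 of its 4 probe sets by non-overlapping readings, and passed on 1. That one (1425229_a_at) read 334 and 296 in shTRPV4 arrays, against 185 and 205 in shGFP arrays, a difference of 0.71 (SE 0.10, 95% interval 0.43 to 0.98, limma adjusted p = 0.037). The brightest (1429428_at) read 1655 and 1653 in shTRPV4 arrays, against 1294 and 1324 in shGFP arrays (0.37, SE 0.06, 95% interval 0.19 to 0.55), and just missed the threshold with a limma adjusted p of 0.0503. The probe set 1429427_s_at, which shares its source sequence with the brightest, read 1586 and 1431 in shTRPV4 arrays, against 1027 and 1069 in shGFP arrays (0.54, SE 0.09, limma adjusted p = 0.0505). Both passed with an offset of 64, with median centring, with either filter on dim probe sets and with an intensity trend in the variance. The passing one did not pass with an offset of 1 (limma adjusted p = 0.070). The probe set 1426639_a_at read 97.4 and 90.4 in shTRPV4 arrays, against 75.4 and 96.4 in shGFP arrays, and its groups overlapped (0.20, 95% interval −0.13 to 0.53). With the 4 averaged, Tcf7l2 rose by 0.45 (SE 0.08, limma adjusted p = 0.044).

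Tcf7l2 is known to be transcribed from more than 1 start and to be spliced into many forms, and the RefSeq windows of 2 of its starts are printed because its probe sets differed in size. The first is chr19:55741560-55741859 and the second is chr19:55895071-55895370, both on the plus strand of GRCm38.p6. Capitals mark CTTTG or its reverse complement CAAAG.
Tcf7l2 first start: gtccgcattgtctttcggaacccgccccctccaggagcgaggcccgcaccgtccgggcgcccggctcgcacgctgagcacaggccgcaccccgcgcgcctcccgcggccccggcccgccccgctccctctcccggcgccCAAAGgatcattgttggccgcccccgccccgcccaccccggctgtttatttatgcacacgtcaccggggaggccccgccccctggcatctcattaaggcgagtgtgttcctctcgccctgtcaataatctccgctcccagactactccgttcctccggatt
Tcf7l2 second start: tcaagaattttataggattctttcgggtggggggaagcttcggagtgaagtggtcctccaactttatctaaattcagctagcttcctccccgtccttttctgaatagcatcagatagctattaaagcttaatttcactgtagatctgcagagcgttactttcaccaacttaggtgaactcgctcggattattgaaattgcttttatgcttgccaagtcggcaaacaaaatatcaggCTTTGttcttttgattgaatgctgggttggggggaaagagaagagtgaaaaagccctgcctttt
Each window has 1 match to the core, and 53.9% of all RefSeq windows have at least 1. The longer form CTTTGTT, which contains the core, is present in the second window and in 5.85% of all windows. The form CTTTGAT, searched in the same way, was in none of the 8 windows of the 7 genes that had one and in 3.73% of all windows. The first window is 70% G and C with 34 CpG dinucleotides, and the second is 42% G and C with 7. Which start gave the array signal was not tested.

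Axin2, a scaffold of the complex that destroys beta-catenin and a widely used readout of canonical Wnt signalling because that signalling induces it, did not pass. Its brighter probe set (1436845_at) read 31.6 and 42.5 in shTRPV4 arrays, against 49.2 and 46.8 in shGFP arrays. The shTRPV4 readings were lower without overlap, and the difference was −0.22 (SE 0.14, 95% interval −0.61 to 0.16, limma adjusted p = 0.36). It was −0.057 without shTRPV4 replicate 1 and −0.39 without shTRPV4 replicate 2. The other (1421341_at) read 13.6 and 15.1 in shTRPV4 arrays, against 14.6 and 18.7 in shGFP arrays, around the offset (−0.09, 95% interval −0.35 to 0.16). Averaged over both, Axin2 differed by −0.16 (95% interval −0.42 to 0.11), which covers both no change and a modest fall.

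Outside the 10 genes, 70 of 80 further Wnt pathway genes had a probe set, and 7 rose, 8 fell and 55 did not pass. That is 21.4% of the 70, beside 11.3% of all genes, and the median difference was 0.01, against 0.02 over all genes. Over all genes 5.33% rose and 6.00% fell, shares to set beside the counts of the single lists below. These lists too were chosen with earlier results of these data known, so their share is not independent of the data. By their brightest probe set, 25 of the 70 were above the median probe set of the array, beside 6817 of all 12393 genes. With the values as deposited 2 rose and 6 fell, and with an offset of 1 these were 0 and 4.

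The 16 other ligands were mostly dim. Wnt6 fell, at 2.79 and 2.48 in shTRPV4 arrays, against 22.4 and 17.3 in shGFP arrays (−0.92, SE 0.09, limma adjusted p = 0.024). Its shTRPV4 readings lie below the offset, which sets the size, −2.46 with an offset of 1 and −0.32 with 64. The one with the highest reading, Wnt2, had 53.8 and 40.4 in shTRPV4 arrays, against 54.6 and 48.6 in shGFP arrays, and did not pass (−0.05).

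Among 11 other receptors and co-receptors 3 rose and 2 fell. The co-receptor genes Lrp5 and Lrp6 both rose. Lrp5 read 174 and 194 in shTRPV4 arrays, against 106 and 118 in shGFP arrays (0.72, SE 0.07, limma adjusted p = 0.025), and Lrp6 differed by 0.54 (SE 0.08, limma adjusted p = 0.044). The second Lrp6 probe set (1451022_at) differed by 0.70 and did not pass, and the Lrp6 call was lost with the values as deposited and when both were averaged (limma adjusted p = 0.071 and 0.063). The receptor gene Fzd8 rose, at 90.7 and 111 in shTRPV4 arrays, against 59.0 and 61.7 in shGFP arrays (0.68, SE 0.10, limma adjusted p = 0.042; adjusted p = 0.059 with the values as deposited). Ror2, a receptor tyrosine kinase for Wnt5a, fell to 5.77 and 5.18 in shTRPV4 arrays, against 29.7 and 30.2 in shGFP arrays (−1.08, SE 0.06, limma adjusted p = 0.015). Its shTRPV4 readings are below the offset, and the size was −2.24 with an offset of 1 and −0.43 with 64. Fzd3 fell on its brightest probe set (−0.97, SE 0.10, limma adjusted p = 0.025) and on none of its 3 dimmer ones, with differences from −0.11 to 0.07, and the call was lost when the 4 were averaged. Ryk, the brightest of the list, is a pseudokinase receptor of Wnt ligands and did not pass on its brightest probe set (−0.25, limma adjusted p = 0.15), while its other one fell (−0.47, limma adjusted p = 0.038).

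Of 16 other secreted modulators and ligand export genes, 1 fell and 0 rose. Rspo2, a secreted enhancer of Wnt signalling that binds LGR receptors, read 109 and 119 in shTRPV4 arrays, against 211 and 227 in shGFP arrays (−0.77, SE 0.07, limma adjusted p = 0.020). Wls, which carries Wnt ligands to the cell surface and is the brightest of this list, read 1782 and 1725 in shTRPV4 arrays, against 2207 and 1981 in shGFP arrays (−0.21, limma adjusted p = 0.27).

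Inside the cell, 1 of 10 genes of the cytoplasmic relay and destruction complex fell and 0 rose. Ctnnb1, which encodes beta-catenin, read 3868 and 4191 in shTRPV4 arrays, against 5113 and 5390 in shGFP arrays. The difference was −0.40 (SE 0.07), only just past the threshold with a limma adjusted p of 0.04998, and the call was lost with the values as deposited, with median centring and with an offset of 1. A second Ctnnb1 probe set (1450008_a_at) fell by 0.57 on the log2 scale (limma adjusted p = 0.035). The brightest of this list, the casein kinase gene Csnk1a1, did not pass (−0.25, limma adjusted p = 0.11).

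Of 8 TCF/LEF partners 3 rose and 1 fell. Tcf7l1, a TCF/LEF factor that mostly represses, read 2080 and 1995 in shTRPV4 arrays, against 1318 and 1364 in shGFP arrays (0.63, SE 0.08, limma adjusted p = 0.031), and its other probe set did not pass (0.58, limma adjusted p = 0.061). The corepressor gene Tle1 rose on both of its probe sets (0.50 and 0.51). Its relative Tle3 fell on its brightest one (−0.40, SE 0.06, limma adjusted p = 0.041), and the others differed by −0.16 and −0.15 without passing. Ctnnbip1, which encodes an inhibitor of beta-catenin binding to TCF factors, rose by 0.45 (SE 0.06, limma adjusted p = 0.035). The calls for Tle1 and Ctnnbip1 were lost with the values as deposited (limma adjusted p = 0.056 and 0.068), and that for Tle3 when its probe sets were averaged.

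Of 9 targets and feedback genes 2 fell and 1 rose. Ccnd1, which encodes cyclin D1 and responds to many growth signals besides Wnt, fell on all 3 probe sets, and the brightest read 1594 and 1530 in shTRPV4 arrays, against 2731 and 2843 in shGFP arrays (−0.81, SE 0.07, limma adjusted p = 0.020). Myc, a transcription factor of growth with many inputs, read 318 and 343 in shTRPV4 arrays, against 480 and 556 in shGFP arrays (−0.57, SE 0.08, limma adjusted p = 0.038; adjusted p = 0.051 with the values as deposited). Apcdd1, a membrane inhibitor of Wnt signalling that Wnt itself induces, rose on 1 of its 4 probe sets (0.58, SE 0.08, limma adjusted p = 0.038; adjusted p = 0.068 with the values as deposited), and the other 3 differed by 0.49 to 0.55 without passing.

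**Figure D3:**
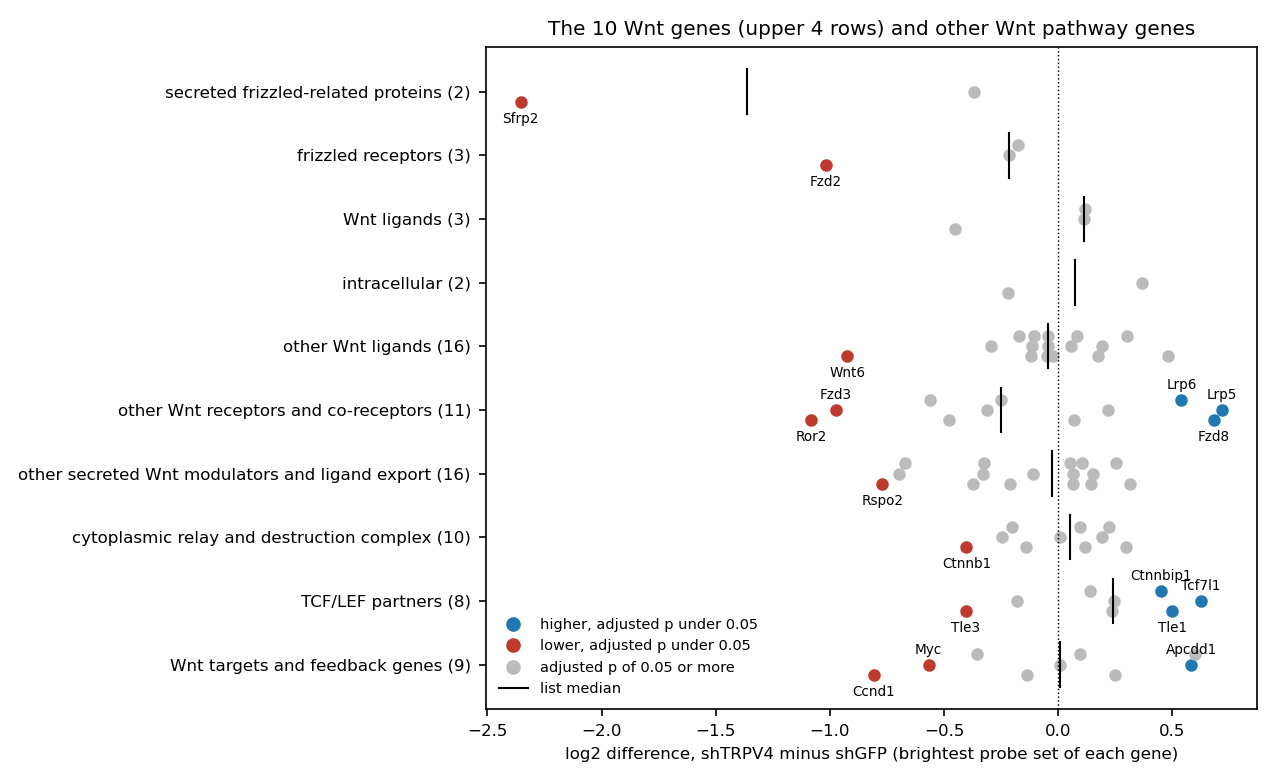
Difference between shTRPV4 and shGFP arrays (horizontal axis, log2(intensity + 16) after quantile normalization) for the brightest probe set of each gene, in rows by role with the number of genes measured. Blue points are higher and red points lower at a limma adjusted p under 0.05, grey points did not pass, and the black line is the list median. Sfrp2 lies at −2.35 and Fzd2 at −1.02, and the other lists have points on both sides of 0.

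The 5 genes whose values over the 4 arrays, centred on their own mean, lay closest to those of Sfrp2 were Lum, Mndal, Ifi27l2a, Runx1 and Ccl2, with root mean square distances of 0.09 to 0.13 on the log2 scale. Lum, which encodes the matrix proteoglycan lumican, read 76.5 and 58.0 in shTRPV4 arrays, against 429 and 380 in shGFP arrays. Runx1, a transcription factor gene, read 135 and 127 in shTRPV4 arrays, against 716 and 847 in shGFP arrays. With 4 arrays in 2 groups, likeness here is mainly a fall of the same size. The Mndal probe set is of the _x_at kind, which can read related genes.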

How the data were processed

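The authors deposited 1 linear intensity per probe set and array in a processed table, from biotin-labelled cRNA on Affymetrix arrays per the labels. How they summarised, background-corrected and scaled the probes is not given in the sources used here. Detection calls were not used, so the level that stands above background is unknown. Groups and replicate numbers came from the titles. With 2 arrays per group, their number limits the precision.

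From these intensities log2(intensity + 16) was computed and quantile normalized, because array medians on that scale spanned 0.14, over a limit of 0.1. A linear model without an intensity trend was fitted with limma 3.58.1 under R 4.3.3 to all 22626 probe sets, with 2 residual and 1.80 prior degrees of freedom. It was also run on simulated data with the same SD for every probe set. That run checked the mean fitted differences and does not show how reliable the calls are. An exact permutation test of 2 against 2 arrays cannot go below p = 0.333 (two-sided) and was not used. Genes were named from the platform annotation. Of the probe sets, 20380 named 1 gene, 691 named several and 1555 were unnamed here. The array carries no stated genome build, and only the RefSeq windows are given with coordinates.

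The 10 genes and the lists were chosen with earlier results of these data known. All probe sets of the 10 genes are reported. Of the other lists, every gene past the threshold and the brightest one are named, along with the 5 genes most like the gene with the largest difference. Alternatives were other offsets, other scalings, filters on dim probe sets, an intensity trend, averaged probe sets, the replicate number as a block and each array left out.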

Additional observations from a re-analysis of the deposited data

How the results depend on the processing

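The falls of Sfrp2 and of all 3 Fzd2 probe sets passed under every other offset, scaling, filter and variance setting that kept them. With an offset of 1 they passed narrowly, with limma adjusted p of 0.047 for Sfrp2 and 0.047 to 0.048 for Fzd2. A filter at the 50th percentile of level removes Sfrp2 and leaves 3 lower calls, all of Fzd2. With a replicate block (the number in the title), limma called 0 probe sets in either direction, over the whole array, the 21 probe sets and the other pathway genes. With any 1 array left out the counts also ranged from 0 to 0, with 4543 to 5913 probe sets at an unadjusted p under 0.05 (8 to 9 of the 21) and 6858 with the block (8 of the 21). Only 1 residual degree of freedom remains in each such fit, and a lone array is assumed to vary like the other group. Without each array in turn the difference ranged from −2.56 to −2.16 for Sfrp2, from −1.13 to −0.92 over the Fzd2 probe sets, and from 0.60 to 0.81 for the called Tcf7l2 probe set. The block's smallest adjusted p was 0.075, shared by Sfrp2. Same-numbered arrays deviated together with a correlation of 0.12 over probe sets, which with 2 pairs does not show that the numbers pair the arrays.

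The count of the 21 called higher was 0 with an offset of 1. It was 3 with an offset of 64, with median centring, with a filter at the 25th or the 50th percentile and with an intensity trend, all of Tcf7l2. Over the array, calls were 180 higher and 426 lower with an offset of 1, 2130 and 1986 with an offset of 64, 600 and 1161 with the values as deposited, and 1662 and 1141 with median centring, against 1027 and 1213. They were 2084 and 1975 without the dimmest 25%, 2642 and 2232 without the dimmest 50%, and 2170 and 1980 with an intensity trend. The share of calls that were higher thus went from 45.8% to 29.7% with an offset of 1, to 34.1% as deposited and to 59.3% with median centring. Among the other pathway genes, 0 rose and 4 fell with an offset of 1, 2 rose and 6 fell with the values as deposited, and 7 rose and 10 fell with an intensity trend, against 7 and 8.

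Signs turned on probe sets that did not pass. Trpv4 differed by −0.093 without shGFP replicate 1, in a range of −0.093 to 0.73 with each array left out. Sfrp1 1460187_at was 0.068 with median centring (−0.052 to 0.028 with each array left out), and Fzd4 1449416_at was −0.045 with the values as deposited (−0.12 to 0.17). With each array left out, Wnt5a spanned −0.035 to 0.26 (1436791_at) and −0.15 to 0.018 (1448818_at), and Wnt10b −0.13 to 0.37. The cause was not tested.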
